A study of Mus musculus with 2 samples.

Results

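The constant genes of the T cell receptor loci and the regulatory DNA around them were examined for Notch1 binding. Members were all peaks of the Notch1 peak list in or within 50 kb of the annotated bodies of 7 genes, namely Trac, Trdc, Trbc1, Trbc2, Tcrg-C1, Tcrg-C2 and Tcrg-C4. The rule found 12 of the 5913 peaks in the list. They are called A1 to A4 (Trac), B1 to B7 (Trbc1 and Trbc2) and G1 (Tcrg-C1) here, numbered along each chromosome. The list came from 1 chromatin immunoprecipitation library, made with the rabbit monoclonal antibody D1E11 against Notch1. Its chromatin came from thymic gamma delta T cells, taken directly from wild-type mice of the C57BL/6 strain that were 0 to 3 days old. A second library, from input chromatin of the same cells, is not analysed here. A stated aim was to map where the intracellular domain of Notch1 binds, and no treatment or mutant was compared. With 1 library there was no replicate, no spread between animals and no test. The labels do not say how many animals were pooled or how the cells were purified. A peak list holds no expression values, so the cell type label was not checked against marker transcripts. In such a bulk sample, a site bound in fewer cells and a site bound more weakly in every cell cannot be told apart.

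T cell receptor chains are assembled in the thymus by V(D)J recombination, which joins variable, diversity and joining segments upstream of a constant gene. Trac and Trbc1 or Trbc2 encode the constant parts of the alpha beta receptor, and Trdc and the Tcrg-C genes those of the gamma delta receptor. Each locus is known to have an enhancer near its constant genes that opens the chromatin for recombination and drives transcription: E-alpha downstream of Trac, E-beta downstream of Trbc2, E-delta upstream of Trdc, and a gamma enhancer downstream of each gamma constant gene. Notch1 sits in the cell membrane and, after ligand binding, releases its intracellular domain, which enters the nucleus and joins the DNA-binding protein RBPJ. These enhancers are textbook sites of RUNX, ETS, GATA, TCF/LEF and E-box proteins.

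The sequences of the peak of highest score at each locus are shown, since these peaks carry most of what follows. Each is the stretch of 300 bp within the peak that held the most matches to 20 short motifs, on the forward strand of mm10, read 5′ to 3′. Capitals mark every match to a motif of that list, on either strand. A2 lies at chr14:54227352-54227651, B6 at chr6:41554264-41554563 and G1 at chr13:19182932-19183231.
A2: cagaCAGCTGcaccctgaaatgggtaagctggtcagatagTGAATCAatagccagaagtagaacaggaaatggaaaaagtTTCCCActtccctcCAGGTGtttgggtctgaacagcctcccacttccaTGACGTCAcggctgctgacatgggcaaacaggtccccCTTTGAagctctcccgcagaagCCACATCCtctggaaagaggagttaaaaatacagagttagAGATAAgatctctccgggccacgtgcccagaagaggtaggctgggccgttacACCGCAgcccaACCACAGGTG
B6: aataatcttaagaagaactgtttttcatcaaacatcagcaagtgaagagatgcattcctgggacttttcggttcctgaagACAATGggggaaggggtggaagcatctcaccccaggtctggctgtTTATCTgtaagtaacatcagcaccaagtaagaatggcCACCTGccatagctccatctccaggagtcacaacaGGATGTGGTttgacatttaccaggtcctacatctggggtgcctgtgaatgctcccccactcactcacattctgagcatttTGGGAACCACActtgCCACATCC
G1: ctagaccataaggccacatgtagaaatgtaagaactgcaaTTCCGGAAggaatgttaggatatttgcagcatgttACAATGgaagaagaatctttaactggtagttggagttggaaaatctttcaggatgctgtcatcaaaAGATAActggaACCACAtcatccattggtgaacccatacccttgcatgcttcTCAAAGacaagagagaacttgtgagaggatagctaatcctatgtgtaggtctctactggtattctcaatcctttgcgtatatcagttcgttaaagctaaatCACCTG

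In A2, counted from the first base printed, the capitals mark an E-box at positions 5 to 10, an AP-1 match at 41 to 47, an RBPJ core on the reverse strand at 81 to 86, and an E-box at 95 to 100. A full palindromic CRE, the site of CREB and ATF proteins, follows at 129 to 136. A TCF/LEF match stands at 166 to 171 and a composite of an ETS and a RUNX site at 188 to 195, so that these 3 sites of the known E-alpha array lie in this order within the printed stretch. A GATA match (228 to 233), a pair of RUNX matches (280 to 285 and 291 to 296) and an E-box (295 to 300) complete the capitals. In B6 the capitals mark SOX (81 to 86), GATA (126 to 131), E-box (163 to 168), an ETS-RUNX composite (198 to 205) that overlaps a RUNX match (201 to 206), an RBPJ core (278 to 283) that shares 1 base with a RUNX match (283 to 288), and another ETS-RUNX composite on the reverse strand (293 to 300). In G1 they mark a pair of ETS matches that overlap at 41 to 48, SOX (76 to 81), GATA (142 to 147), RUNX (153 to 158), TCF/LEF (194 to 199) and an E-box (295 to 300). The stretch of G1 held no RBPJ core.

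Of the 7 constant genes, 4 had a peak within 50 kb, namely Trac, Trbc1, Trbc2 and Tcrg-C1, while Trdc, Tcrg-C2 and Tcrg-C4 had none. That share of 57.1% has a Wilson 95% interval of 25.0 to 84.2%, which covers counting error only. By the same rule 34.0% of the 21938 protein-coding genes had a peak, and these shares were not compared by a test. Within 10 kb the count was 3 of 7 (Trac, Trbc1 and Trbc2), beside 17.6% of protein-coding genes. Trbc1 and Trbc2 lie so close together that both windows held the same 7 peaks, so they are not separate observations, although the interval treats them as such. At least 7 peaks within 50 kb were found for 0.301% of protein-coding genes, and at least 4, the number at Trac, for 1.57%. No peak overlapped the body of any of the 7 genes (Wilson 95% interval 0 to 35.4%), beside 11.6% of protein-coding genes with a peak in the body. Of the 12 peaks 8 lay downstream and 4 upstream of the constant gene nearest to them, and 10 lay within 10 kb of it. None lay within 1 kb of the start site of a protein-coding gene. The share of all nuclear peaks that do so is not given here, so this count does not set the members apart. Positions refer to the unrearranged genome, which the cells need not carry.

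Trac, the constant gene of the alpha chain (ENSMUSG00000076928.5, chromosome 14, 54220521 to 54224206), had all of its 4 peaks on its downstream side, toward Dad1, a gene for a subunit of the oligosaccharyltransferase. A1 (54224608 to 54224946, 339 bp) began 402 bp beyond the end of Trac and scored 831. A2 (54227111 to 54227897, 787 bp) began 2905 bp beyond it, in the stretch known to hold E-alpha, and scored 3100. That value placed A2 at rank 5 of the 5910 nuclear peaks, with 4 peaks above it and 36 at exactly this score, A2 included. Of those 36 peaks 22 held over 10% of repeated strings, meaning stretches of 32 bases found at several places in the genome, whereas A2 held 0. Among the 5348 nuclear peaks with at most 10% of such strings, 15 scored at least as high as A2, A2 included. The 36 peaks at 3100 hold the same value, so they cannot be ordered among themselves. The score is the authors' own value and its unit is not stated.

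A3 (54231258 to 54231685, 428 bp) began 7052 bp beyond Trac, scored 1159 and held 4.53% repeated strings. A1 to A3 together spanned 7.08 kb, between Trac and the downstream end of Dad1, and overlapped no annotated gene. A4 (54266335 to 54266493, 159 bp) lay apart from them, 42.1 kb beyond Trac, in an intron of Abhd4, a lipase gene, and 3054 bp from the nearest start site of a protein-coding gene. The next gene beyond it, the olfactory receptor gene Olfr49, lay 11760 bp away. A4 scored 1781 (rank 143) but was among the narrowest peaks, at width rank 5881 of 5910. Of the 30 nuclear peaks no wider than A4, A4 included, 27 scored at least as high as A4, itself included. The median score of the 30 was 1872. A total of 3 peaks, A4 included, had exactly the width and the score of A4. Among the 5880 wider peaks, 2.04% scored that high.

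**Figure D1:**
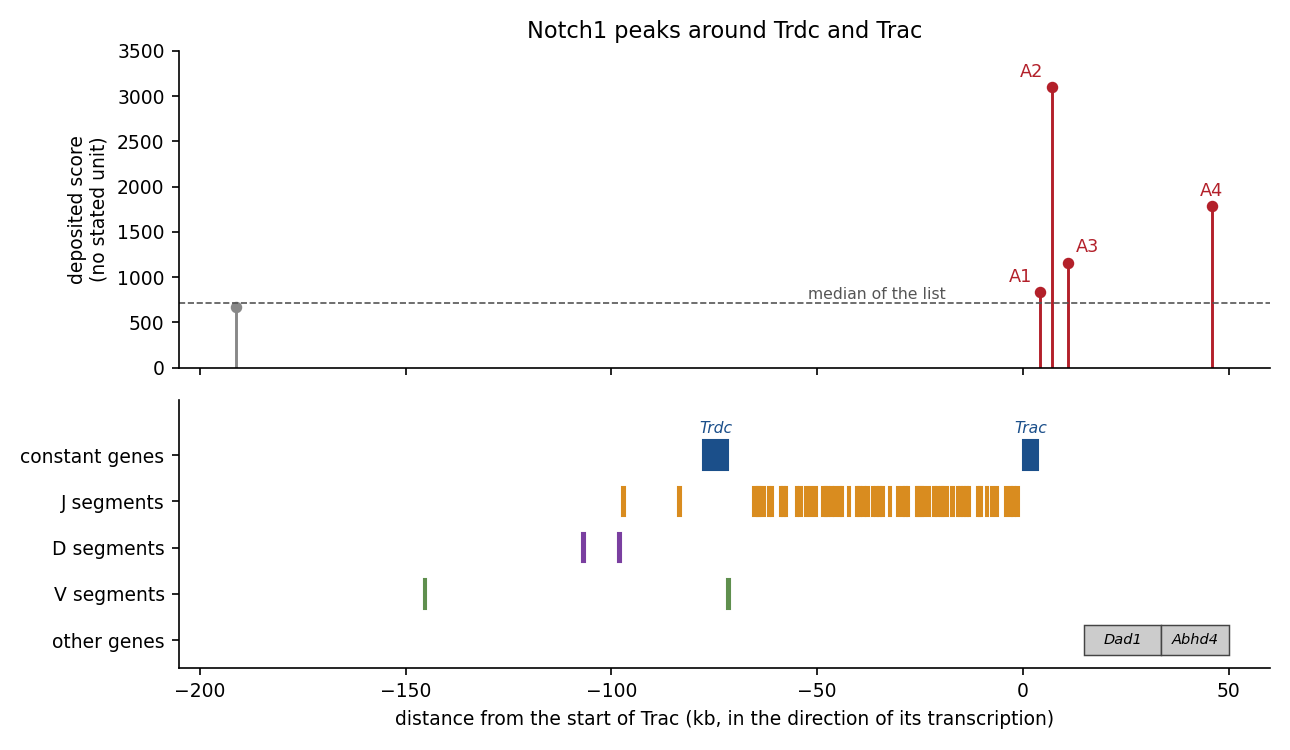
Deposited score (no stated unit, upper panel) of each Notch1 peak against distance in kb from the start of Trac, with the receptor segments, Dad1 and Abhd4 below. Red points are the members A1 to A4 and the grey point is the nearest peak outside the rule. All 4 red peaks stand right of Trac, A2 is the highest at 3100, and no peak stands over the D and J segments or Trdc.

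Trdc, the constant gene of the delta chain (ENSMUSG00000104876.1, chromosome 14, 54142851 to 54148868), had no peak in or within 50 kb of its body. The nearest was A1, 75.7 kb downstream. The stretch without a peak ran for 195 kb, from 54029446 to 54224607, and held both D segments of the delta locus (Trdd1 and Trdd2), 53 J genes of the delta and alpha loci, Trdc and Trac. It includes the 6.01 kb between Trdj2 and Trdc, where E-delta is known to lie. Repeated strings made up 26.0% of that interval and 6.0% of the body of Trdc, and reads from such strings may map to several places. Neither the depth nor the treatment of such reads is known here. The list held no peak in that interval, which is not the same as absent binding at E-delta, and the reason was not tested.

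The beta locus held 7 peaks within 19.7 kb on chromosome 6, and they covered 2973 bases. Around Trbc1 (ENSMUSG00000076490.6, 41538218 to 41539881), B1 (41535337 to 41535750, 414 bp, score 643) lay 2468 bp upstream and covered the joining segments Trbj1-6 and Trbj1-7 whole, 204 bp past Trbj1-5. B2 (41541527 to 41542005, 479 bp, score 927) lay 1646 bp downstream of Trbc1. It ended 158 bp before Trbd2, the second D segment, in a stretch known to hold a promoter of that segment. No peak had the matching place at the first D segment: the nearest to Trbd1 was B1, 2125 bp downstream of it. B2 was the second highest of the 7 peaks and B6 the highest. The stretch of 300 bp of B2 with the most motif matches is given because B2 is the peak nearest to Trbd2; it was chosen after its values were seen, and its coordinates are chr6:41541651-41541950.
B2: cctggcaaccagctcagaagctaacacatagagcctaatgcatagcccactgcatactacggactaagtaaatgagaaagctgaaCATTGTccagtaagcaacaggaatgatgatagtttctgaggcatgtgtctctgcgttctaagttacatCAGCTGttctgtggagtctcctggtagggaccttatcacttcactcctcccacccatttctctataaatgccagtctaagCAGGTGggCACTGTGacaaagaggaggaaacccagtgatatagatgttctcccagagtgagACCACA

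There the capitals mark SOX (86 to 91), E-box (154 to 159 and 234 to 239), a match to the letters of the recombination heptamer (242 to 248) and RUNX (295 to 300). B2 overlaps no annotated segment and holds no match to the nonamer, so the heptamer letters are a string match and not an annotated recombination signal. The only other heptamer match in a member peak, in B1, lay inside the coding part of Trbj1-6.

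Upstream of Trbc2 (ENSMUSG00000076498.2, 41546730 to 41548352), B3 (41543829 to 41544236, 408 bp, score 648) covered 28 bases of Trbj2-7, the last J segment, 184 bp past the pseudogene Trbj2-6, and lay 2494 bp from the gene. B4 (41544448 to 41544864, 417 bp, score 656) followed after 211 bp, 1866 bp upstream of Trbc2, in the stretch between the J segments and the constant gene. Downstream of Trbc2 a group of 3 peaks stood between it and Trbv31, the V segment in reverse orientation, where E-beta is known to lie. B5 (41553150 to 41553535, 386 bp, score 656) began 4798 bp beyond Trbc2. B6 (41554008 to 41554577, 570 bp) began 5656 bp beyond it and scored 1620 (rank 208). B7 (41554741 to 41555039, 299 bp, score 624) followed B6 after 163 bp. B5 was the member with most repeated sequence: 28.5% of its 32-base strings are repeated ones and 42.2% of its bases are soft-masked. The other 6 beta peaks held 0% repeated strings. The bodies of Trbc1 and Trbc2, known near-copies of each other, held 319 repeated strings each, which made up 19.5% of the body of Trbc1.

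**Figure D2:**
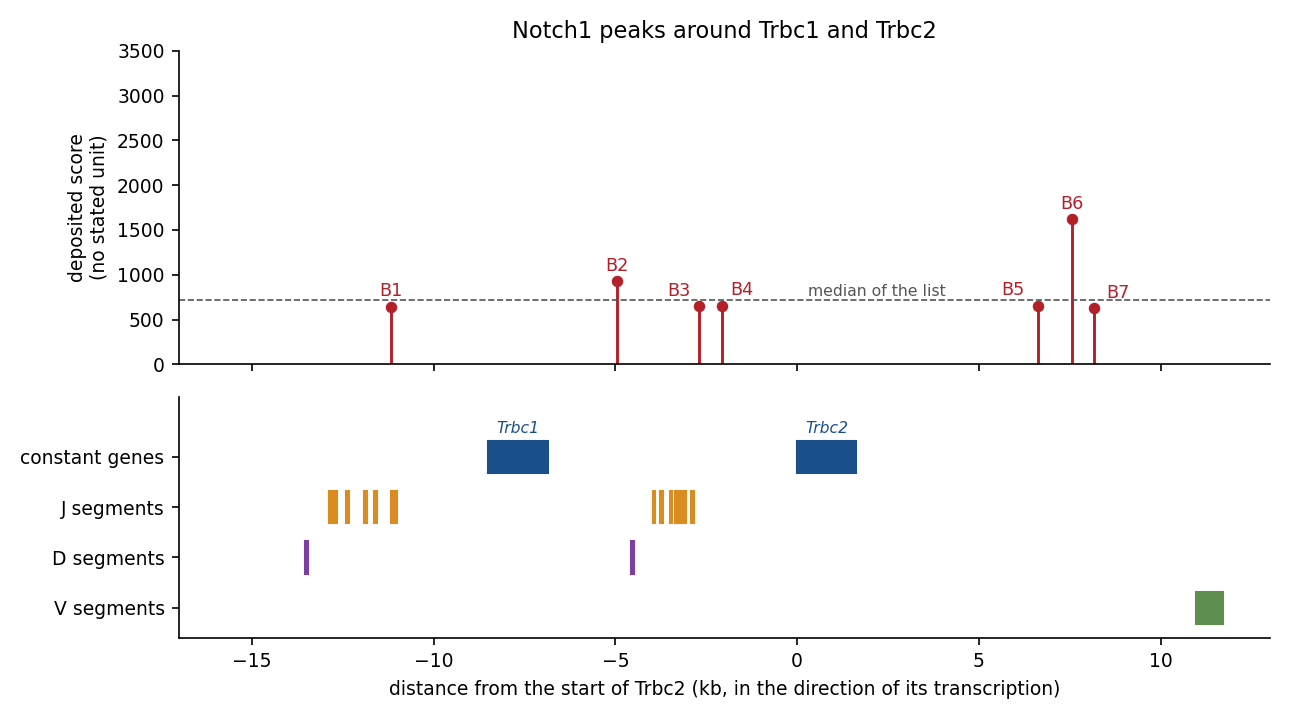
Deposited score (no stated unit) of each Notch1 peak against distance in kb from the start of Trbc2, with the annotated C, J, D and V segments below. B2, left of the second D segment, and B6, right of Trbc2, rise above the dashed median of the list, and the other 5 peaks stand just under it.

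Of the 7 beta peaks 5 scored under the median of all nuclear peaks (718), and B2 and B6 scored above it. In the whole list, 8 stretches of the genome held at least 7 peaks within 20 kb, and in 6 of these the median peak held at most 10% repeated strings. The beta locus is among the 6. Its median score was 656, while the other 5 had medians from 800.3 to 1130. From B1 onward, the next 20 kb held 7 peaks, a number that 1.07% of nuclear peaks matched or exceeded.

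Among the gamma constant genes only Tcrg-C1 (ENSMUSG00000076749.2, chromosome 13, 19214103 to 19217024) had a peak within 50 kb. G1 (19182799 to 19183252, 454 bp, score 844, rank 1836) lay 30.9 kb upstream of it, in an intron of the antisense transcript gene Gm31887. It stood 4307 bp beyond Tcrg-V7 and 1722 bp before Tcrg-V4. G1 held 0% repeated strings. Tcrg-C2 (ENSMUSG00000076752.2, 19304649 to 19307551) and Tcrg-C4 (ENSMUSG00000076757.9, 19344558 to 19352756) lay 121 and 161 kb from G1, their nearest peak.

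RefSeq annotates 4 gamma enhancers on this build, and none overlapped a peak. Other kinds of regulatory DNA in the gamma locus were not looked up, so G1 was not compared with them. The gamma 1 enhancer (19219417 to 19220416), downstream of Tcrg-C1, lay 36.2 kb from G1. The gamma 3, gamma 2 and gamma 4 enhancers lay 89.4, 117.2 and 172.9 kb from it. Repeated 32-base strings made up 64.1% of the gamma 1, 69.9% of the gamma 3 and 76.9% of the gamma 2 enhancer, but 0% of the gamma 4 enhancer. The bodies of Tcrg-C1 and Tcrg-C2 held 53.7 and 44.0% of such strings, and that of Tcrg-C4 1.8%. How far this limited the peaks that could be found at the first 3 enhancers was not tested. The list also held no peak at the gamma 4 enhancer or Tcrg-C4, and the reason was not tested. The stretch without a peak downstream of G1 ran for 380 kb and held every gamma J and C gene.

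**Figure D3:**
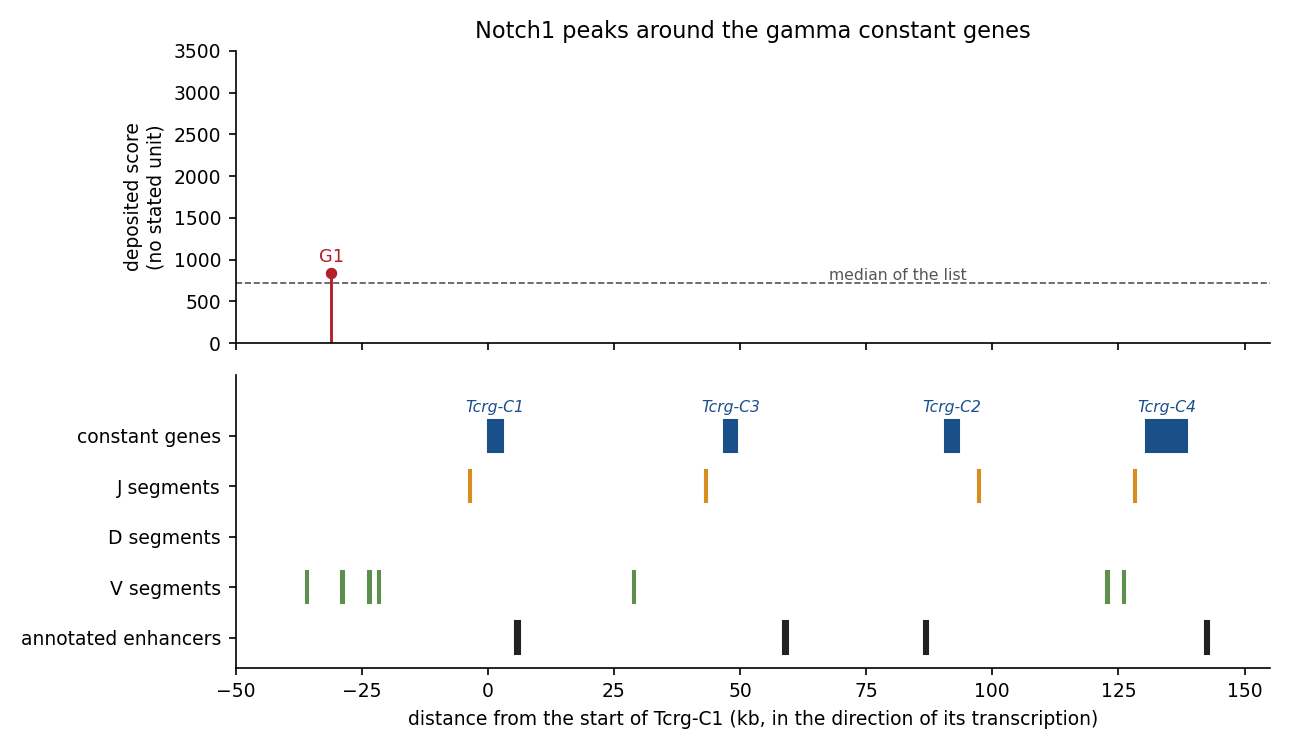
Deposited score (no stated unit) of each Notch1 peak against distance in kb from the start of Tcrg-C1, with the annotated segments and the 4 RefSeq gamma enhancers (black) below. G1 at 844 is the only peak shown and stands among the V segments, away from these 4 enhancers. Other regulatory DNA of the locus is not drawn.

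The edge of the 50 kb rule fell in wide gaps. The farthest members lay 42.1 kb (A4), 30.9 kb (G1) and 6389 bp (B7) from a constant gene. The nearest peaks left out lay 113 kb away at the alpha and delta locus (score 672), 139 kb at the beta locus (score 808) and 210 kb at the gamma locus (score 863).

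The 12 members had a median score of 838 (lowest 624, highest 3100), and the other 5898 nuclear peaks one of 717.5. Their median width was 415.5 against 370 bp. Score and width were not independent in this list, since 55.1% of nuclear peaks shared both score and width exactly with another peak. Of the members, A4, B1, B2 and B3 did so. The score and width of B1 occurred in 26 peaks, those of B3 in 15 and those of B2 in 2. The score of B7 occurred in 60 peaks, of which B7 was the only one 299 bp wide. B6 was the only peak at its score, and A2 shared its score but not its width with others. Both were wide, at width ranks 88 (A2) and 209 (B6). Base composition differed between the loci: the alpha peaks held 52.2 to 54.6% G and C, the beta peaks 42.5 to 51.4%, and G1 36.3%, beside a median of 43.9% over the other nuclear peaks.

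**Figure D4:**
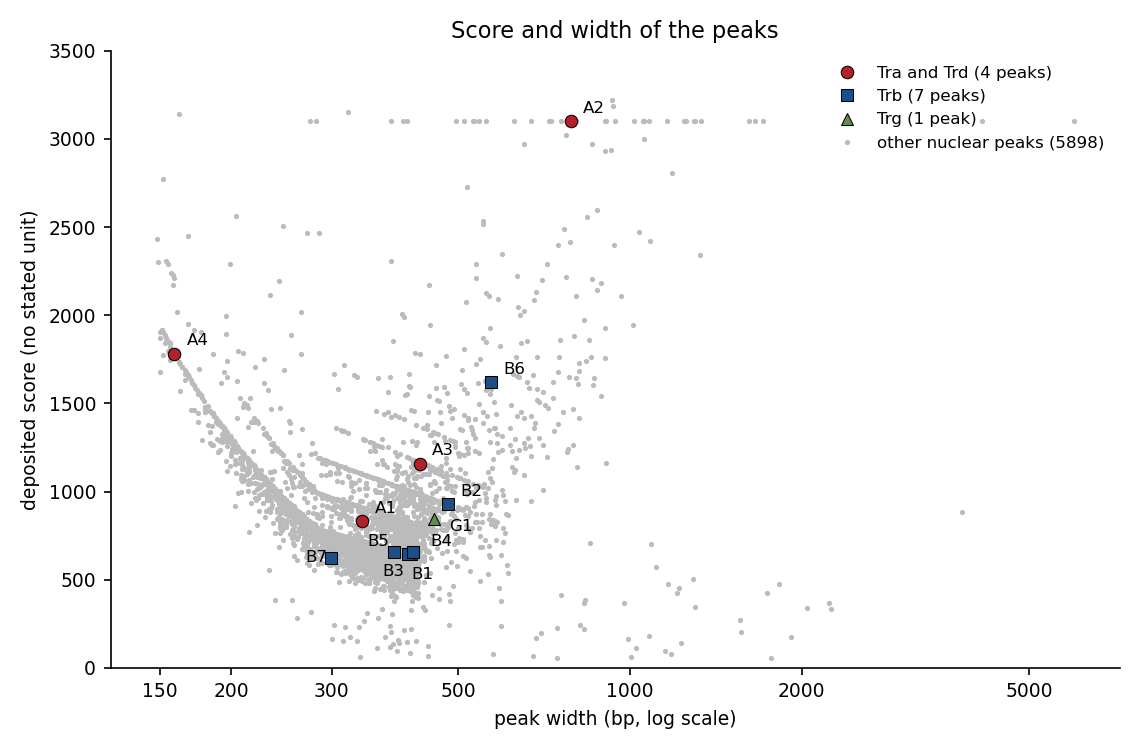
Deposited score (no stated unit) against width in bp (log scale) for the 12 members, coloured by locus, and the 5898 other nuclear peaks in grey. A4 lies on the grey line that climbs toward narrow widths, B1, B3, B4, B5 and B7 lie in the dense part under the list median, and A2 lies on the row of peaks at 3100.

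The members were next compared for the motifs in their sequence. Of 20 motifs searched on both strands, 16 matched at least 1 member. The RBPJ core TGGGAA, which is also the core of Ikaros proteins, lay in 7 of the 12 peaks with 12 matches, namely in A2, A3, B1, B2, B3, B6 and B7. Since wide peaks hold more sequence, windows of equal length were set side by side. In the 300 bp centred on each peak the core lay in 3 of the 12 members (A2, A3 and B7), in 25.0% of all 5910 nuclear peaks, and in 23.7% of 26461 windows of the same length placed every 100 kb along the genome. In B1, B2, B3 and B6 every core lay outside these central 300 bp. The longer RBPJ site TGTGGGAA, which contains the core, lay in no member, in 2.35% of peak windows and in 1.90% of grid windows.

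The RUNX motif TGTGGT lay in 6 members with 8 matches (A2, A3, B2, B4, B6 and G1). Its centred count was 4 of 12, beside 23.2% of peak windows and 19.5% of grid windows. The motif AGATAA of the GATA family lay in 6 members, and in 5 of the 12 centred windows, beside 17.7 and 19.4%. The E-box CAGGTG lay in 9 members, and in 7 of the 12 centred windows, beside 18.5 and 17.1%. The ETS-RUNX composite GGATGTGG, whose last bases can overlap TGTGGT, lay in A2 once and in B6 at 2 places. Both places in B6 were outside its centred window, so the centred count was 1 of 12 (A2), beside 1.88% of peak windows and 1.73% of grid windows. The full CRE palindrome TGACGTCA lay in A2 alone among the members, beside 0.948% of peak windows and 0.170% of grid windows. The ETS motif AGGAAG lay in A1, A3, A4 and B1, all within the central 300 bp, beside 32.3% of peak windows and 29.9% of grid windows, and its other spelling CCGGAA lay in G1 alone, beside 6.07 and 2.13%. TCF/LEF (CTTTGA) lay in A2, B4 and G1, beside 21.6 and 22.5%, and the E-box CAGCTG in A2, B1 and B2, beside 13.2 and 10.6%. The AP-1 motif TGANTCA lay in A2 and B7, beside 9.37 and 8.77%. SOX (ACAATG) lay in B2, B6 and G1, beside 17.1 and 18.1%, and the recombination heptamer CACAGTG in B1 and B2, beside 7.45 and 7.28%. The ROR motif AGGTCA lay in 6 members, and in 3 of the 12 centred windows, beside 17.5 and 16.1%. The other RUNX spelling, TGCGGT, lay in A2 alone, beside 3.87 and 1.77%. The MYB motif CAACTG lay in A1, outside its centred window, beside 14.3 and 14.5%. STAT (TTCNNNGAA), the recombination nonamer ACAAAAACC and the CTCF motif lay in no member, beside 9.39, 0.761 and 2.10% of peak windows and 11.2, 0.990 and 1.59% of grid windows. A missing match says only that these letters are not in the window. With 12 members, and several of them neighbours, these counts are descriptions and no difference was tested.

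Per kb, A2 and B6 held the most matches to the motif list, with 19.1 and 19.3, and B5 the fewest, with 5.18. A2 held 11 different motifs, B6 held 7, and B1, B2 and G1 held 6 each. No pair among the 66 pairs of members shared a string of 16 bases on either strand, and the longest stretch that aligned between any pair was 33 bp. The D, J and C clusters of the beta locus are known to have arisen by duplication, and B1 to B7 are among the pairs compared.

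**Figure D5:**
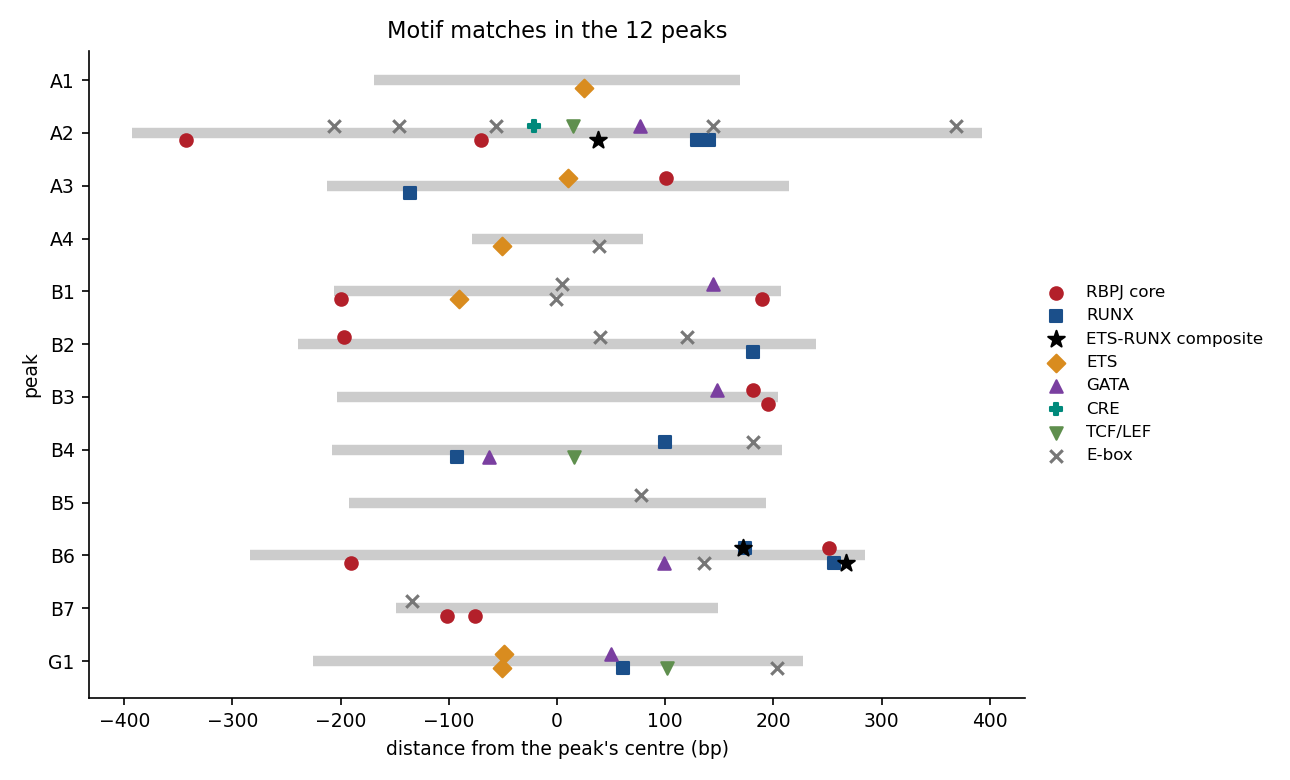
Position of motif matches in bp from the centre of each member (grey bars show the extent of the peak, A1 to G1 from top to bottom). Symbols above a bar are on the forward strand and those below on the reverse strand, ETS, RUNX and E-box each combine 2 spellings, and the other motifs searched are not drawn. In A2 the CRE, TCF/LEF and ETS-RUNX matches lie near the centre, whereas in B6 the ETS-RUNX and RUNX matches and 1 of the 2 RBPJ cores lie toward the right edge.

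Other genes of receptor assembly were counted by the same 50 kb rule, beside 34.0% of protein-coding genes. Of 13 immunoglobulin constant genes, the counterparts in B cells, only Igkc had a peak, 11.8 kb away (score 1082). Of 5 genes of the receptor complex 4 had a peak: Cd247, the zeta chain gene, had 7 (highest score 1400), and Cd3g, Cd3d and Cd3e shared a peak on chromosome 9 from 44966814 to 44967200 (score 469), which lay 2372 bp from Cd3g. Cd3e lay 31.5 kb from that peak, its nearest, and had a second peak, with a highest score of 1042. Ptcra, the pre-T alpha gene, had none. Of 10 recombination genes 4 (40%) had a peak, a share near that of all protein-coding genes. They were Xrcc5 (728), Xrcc6 (655), Nhej1 (742, 32.4 kb away) and Dclre1c (highest 684), all genes of end joining. The end-joining genes Xrcc4, Lig4 and Prkdc had none, nor did the recombinase genes Rag1 and Rag2 and the terminal transferase gene Dntt. Of 17 genes for factors known to act at receptor enhancers 16 had a peak, all but Cbfb. The highest scores within 50 kb were for Runx3 (2310), Ikzf1 (1646), Stat5b (1622, a peak that Stat5a shares) and Tcf3 (1470). Runx3 had no peak in its body, and its nearest, with a score of 740, lay 25.4 kb away. Rbpj itself had 1 peak, with a score of 664. Genes differ in length, so these shares were not compared by a test.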

How the data were processed

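The deposited peak list gives for each Notch1 peak a position, a name starting with MACS and a score, the authors' own value with no stated unit. Per the submitters' processing notes, Bowtie 1.0.0, SAMtools 0.1.18 and build mm10 were used. No MACS version or setting, role of the input, depth, or handling of duplicate or multiply mapped reads is given in the sources used here. Fixation used 0.5% formaldehyde for 5 min and library amplification 18 PCR cycles, per the labels' protocols.

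Peaks were set on GRCm38 with GENCODE M21, by an overlap of at least 1 bp with gene bodies widened by 50 kb. All 5910 nuclear peaks were ranked by score and width, and the 3 mitochondrial peaks were left out of ranks. Strings of 32 bases were counted on both strands over the primary assembly, from which the printed sequences were also read. Motifs were exact strings. The gene caller, the string counter and the motif search were tested on simulated data. Python 3.11.15, numpy 2.4.6, pandas 2.3.3, Biopython 1.88 and matplotlib 3.10.9 were used. Named genes were the 7 constant genes, every gene under or beside a member peak, and members of 3 gene lists and immunoglobulin constant genes with a peak. Genes without one, the annotated enhancers and crowded stretches were named after their values were seen. The gamma enhancers were taken from the RefSeq annotation of GRCm38. The members, lists and motifs were chosen with earlier results of these data known. Alternatives changed the window, the overlap, the annotation, the score threshold, repeated peaks and the sequence searched.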

Additional observations from a re-analysis of the deposited data

How the results depend on the processing

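The count of 12 member peaks was 10 with windows of 10 or 20 kb, 12 with 100 kb, by peak midpoint or with RefSeq gene bodies, and 11 without peaks of over 10% repeated strings. It was 7 once peaks under the list's median score were left out, and 5 in the upper quartile. The 4 constant genes with a peak were 3 with 10 or 20 kb and in the upper quartile, 5 with 100 kb, and 4 otherwise. The gene added at 100 kb was Trdc, through A1 to A3, which were already counted for Trac. RefSeq bodies and the removal of repeated peaks were added for this count after seeing the data. Protein-coding genes with a peak numbered 7466 (34.0%), against 3864 (17.6%) with 10 kb, 4867 (22.2%) with 20 kb and 10542 (48.1%) with 100 kb. Within 50 kb, 20.9% of them had a peak at or above the median score and 11.7% one in the upper quartile. The RBPJ core lay in 7 whole peaks but in 3 of the centred windows, which hold less sequence than most of these peaks. Of 16 other motifs 9 kept their count there, 6 fell and 1 rose (CTCF, with a match beside A4 that the peak itself does not hold). No paired analysis was possible because there was 1 Notch1 library. The list gives no depth, so no interval on a score can be set.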

Other observations

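Segments of the receptor loci were counted by the same rule, under which 34.0% of protein-coding genes had a peak within 50 kb, and no difference was tested. Within 50 kb, 52 of 70 T cell receptor J genes and 2 of 4 D genes (Trbd1 and Trbd2) had a peak, and 10 of 144 V genes did. Within 1 kb, 11 J genes had one, all of them in the beta locus, along with Trbd2 and Trac, and 0 of 144 V genes did. The share of protein-coding genes was not counted at 1 kb. It was 11.6% for peaks in the gene body and 14.9% within 5 kb. Neighbouring segments share their peaks, so the counts are of segments and not of separate sites. In the immunoglobulin loci 5 of 14 J genes (Igkj1 to Igkj5) and 12 of 218 V genes had a peak within 50 kb, and 0 of 19 D genes did.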
